A study of Mus musculus with 36 samples.

Results

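Chemokines and their receptors were followed across 4 primary mouse cell types. Members were all protein-coding genes of the gene-level count table whose symbol begins with Ccl, Cxcl, Cx3cl, Ccr, Cxcr, Cx3cr or Ackr followed by a digit. Of 54347 genes in the table, 57 met this rule: 22 CC ligands, 12 CXC ligands, 1 CX3C ligand, 18 signalling receptors and 4 atypical receptors. A mean level above 1 CPM (counts relative to the effective library size after TMM scaling) in at least 1 of 12 groups was reached by 33 of them, namely 13 CC ligands, 9 CXC ligands, Cx3cl1, 9 receptors and the atypical receptor Ackr3. The other 24 stayed at or below that level in all groups: Ackr1, Ackr2, Ackr4, Ccl1, Ccl17, Ccl19, Ccl20, Ccl21a, Ccl21b, Ccl22, Ccl24, Ccl26, Ccr1l1, Ccr4, Ccr6, Ccr7, Ccr8, Ccr9, Cxcl3, Cxcl15, Cxcl17, Cxcr1, Cxcr5 and Cxcr6.

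The study asked whether the ketone body β-hydroxybutyrate (βOHB) changes transcription in cells that may encounter it, and used butyrate, a short-chain fatty acid that lacks the hydroxyl group of βOHB, as a structural relative. Adipocytes came from precursors in the inguinal fat of several pooled C57Bl/6 male mice, differentiated in culture, macrophages (bone marrow-derived) were grown from femurs of C57Bl/6 males in L929-conditioned medium, myocytes (labelled skeletal myotubes) came from hindlimb myoblasts of C57Bl/6 males, and hepatocytes came from males given as C57Bl/6 in the labels and as C57BL/6NHsd in the methods. The methods also name C57BL/6N mice of another facility as the source of some primary cells without saying which, so that substrain, facility and cell type cannot be told apart. For 6 h each cell type was given either PBS (control) or 1 of the compounds at 5 mM, with 3 libraries per group and 36 libraries in all. Animal age was not given in the sources used here, and treatment medium was the same in adipocytes and macrophages but another in myotubes and in hepatocytes, so that for the last pair medium and cell type cannot be told apart. The labels do not say whether replicates came from separate cultures or animals, and p-values then measure only the spread between these libraries, which may be technical.

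Chemokines are small secreted proteins that guide leukocyte migration along concentration gradients and are grouped by the spacing of their N-terminal cysteines. They act through G protein-coupled receptors that signal mainly through inhibitory G proteins, while atypical receptors bind ligand without that signalling and remove it. In fat, muscle and liver, chemokines are known for drawing monocytes, neutrophils and T cells into stressed or inflamed tissue, and macrophages both make and sense many of them.

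The labelled cell types carried their own markers: 8 adipocyte markers summed to 16190 to 17510 CPM in adipocyte controls, 10 macrophage markers to 17820 to 18010 CPM in macrophage controls, 8 myotube markers to 25020 to 30720 CPM in myocyte controls and 7 hepatocyte markers to 36710 to 38250 CPM in hepatocyte controls. Library totals were 18366289 to 23221473 counts (median 22177562). Libraries also held markers of other cells. The 7 fibroblast markers summed to 7986 to 9197 CPM in adipocyte controls, 2461 to 2641 CPM in macrophage controls and 1667 to 2044 CPM in myocyte controls. Adipocyte controls held 367 to 438 CPM of the macrophage markers. The 10 macrophage markers (Ptprc, Cd68, Adgre1, Csf1r, Lyz2, Itgam, Fcgr1, Mrc1, C1qa and Cd14) summed to 333, 266 and 127 CPM in the 3 myocyte controls, and the 7 hepatocyte markers, at 0 to 0.044 CPM in these controls, reached 31.02, 550 and 128 CPM in the 3 myocyte libraries with butyrate and 24.2 CPM in βOHB replicate 3. Marker values are given again beside results that move with them. In bulk RNA, fewer cells of a type and less RNA per cell cannot be told apart.

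In the controls, each cell type had its own set of chemokine genes. A member was called highest in a cell type when its level exceeded that of each of the other 3 cell types at an adjusted p below 0.05 (edgeR quasi-likelihood test, Benjamini-Hochberg adjustment over 15340 genes). Of the 33 members, 30 entered the test. Ccl5, Ccr10 and Cxcr2 did not exceed 1 CPM in at least 6 libraries, where CPM for this filter was relative to library totals before TMM scaling. Adipocytes were highest for 8 members (13.3% of all genes tested were), macrophages for 11 (20.5%), myocytes for 3 (21.5%) and hepatocytes for 6 (23.5%), while Ccl6 and Cxcl13 were not separated from the next cell type. Some of the low members passed the filter mainly through the cell type in which they were high, as Ccr3 did in macrophages, so these counts describe and do not support a tendency of the members.

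Macrophages were the main source of receptors. Cxcr4, the receptor for Cxcl12 that retains haematopoietic cells in bone marrow, had 211 CPM per kilobase of exon in macrophage controls, the highest per-length level of any reported member. Its 3 macrophage controls were at 381, 386 and 375 CPM, against 11.7, 9.85 and 8.35 CPM in myocytes, and no library of another cell type came near. Cx3cr1, the fractalkine receptor of resident macrophages and monocytes, stood at 93.9, 90.8 and 97.2 CPM in macrophage controls and at 9.803, 8.45 and 3.52 CPM in the myocyte controls. The receptors Ccr1, Ccr2, Ccr3 and Cxcr3 were also highest in macrophages, with mean levels of 14.2, 6.42, 1.77 and 3.31 CPM. Summed over all 18 signalling and 4 atypical receptors of the symbol rule, macrophage controls reached 559 ± 2.72 CPM (SD, n = 3), adipocytes 29.0 ± 1.91, myocytes 32.6 ± 10.6 and hepatocytes 8.96 ± 3.33.

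Among ligands, macrophage controls were highest for Cxcl16, a membrane-anchored chemokine that also acts as a scavenger receptor, for Ccl9 and for the leukocyte attractants Ccl3 and Ccl4. Per kilobase, Cxcl16 stood at 63.9, Ccl9 at 54.8 and Ccl3 at 26.8 CPM. Cxcl16 was at 193, 189 and 196 CPM in macrophages and 102, 101 and 106 CPM in hepatocytes, which came next (log2 difference 0.91, largest adjusted p = 9.76e-07 over its 3 contrasts). Ccl9 followed the same order, with 167 CPM in macrophages, 55.6 in hepatocytes, 20.0 in adipocytes and 11.1 in myocytes as group means. Ccl6, a close relative of Ccl9, was at 26.5 CPM in macrophages and 22.7 in adipocytes, a difference that did not pass the test (adjusted p = 0.227).

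Adipocyte controls were highest for the homeostatic chemokines Cxcl12 and Cxcl14, for the monocyte and eosinophil attractants Ccl7, Ccl8, Ccl11 and Ccl12, for the interferon-inducible Cxcl9 and for Ackr3, which scavenges Cxcl12. Per kilobase of exon, Ccl7 (70.4 CPM) and Ccl2 (66.7 CPM) led in these cells, followed by Cxcl12 (37.2), Cxcl14 (30.5) and Ccl6 (12.7). The 3 libraries held 322, 293 and 296 CPM of Cxcl12, and the next cell type, macrophages, had 62.6 CPM on average (log2 difference 2.28). Ccl11 (eotaxin) was at 0 CPM in all macrophage and hepatocyte controls and at 11.8 CPM in adipocytes. Its level over myocytes was 19.8-fold. The adipocyte controls also held 7986 to 9197 CPM of 7 fibroblast markers, and the part of fibroblast transcripts in these levels was not tested.

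Hepatocyte controls were highest for Ccl2, the main attractant of monocytes through Ccr2, for the neutrophil attractants Cxcl1, Cxcl2 and Cxcl5, for the Cxcr3 ligand Cxcl10 and for Ccl25. Ccl2 stood at 144 CPM per kilobase and Cxcl1 at 84.6. Cxcl1 was found almost only in hepatocytes, at 174, 139 and 163 CPM, 91.0-fold above adipocytes, the next cell type. Ccl2 ran from 164 CPM in hepatocytes through 75.9 in adipocytes and 35.5 in myocytes to 15.2 in macrophages. Cxcl5 separated from adipocytes only narrowly (2.57, 1.78 and 2.25 CPM against 1.39, 0.904 and 1.18 CPM, largest adjusted p = 0.0283).

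Myocyte controls were highest for Cx3cl1 (fractalkine), a membrane-tethered chemokine that binds Cx3cr1, and for the low-level epithelial chemokines Ccl27a and Ccl28. Cx3cl1 was at 27.2, 25.7 and 28.9 CPM in myocytes, above 13.8, 11.4 and 12.7 CPM in adipocytes, and the groups did not overlap. Ccl27a has near-identical copies in the mouse genome, among which the deposited counts could be split, so that its value is uncertain. Ligands summed to 134 ± 10.5 CPM in myocytes (SD, n = 3), against 629.6 ± 17.9 in adipocytes, 561 ± 10.7 in macrophages and 585 (531 to 629.9) in hepatocytes.

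**Figure D1:**
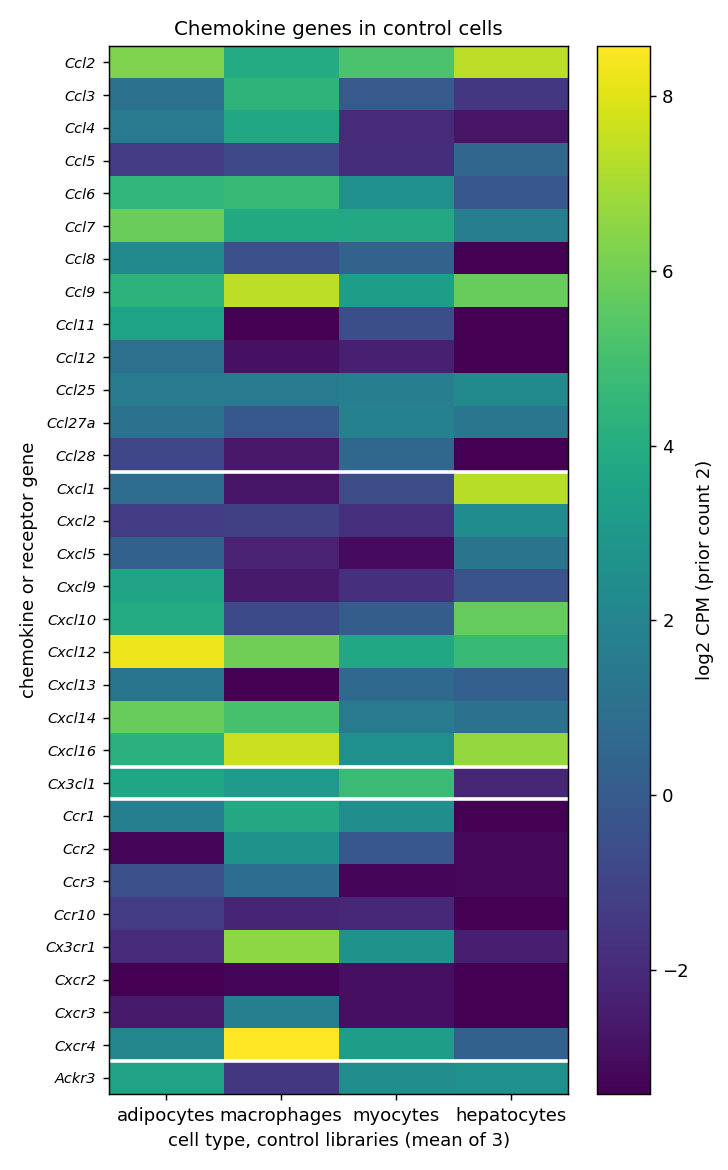
Mean control level of the members reported by name in each of the 4 cell types, as log2 CPM (prior count of 2) by colour, with members grouped by role. Receptors are concentrated in macrophages, where Cxcr4 reaches a mean of 381 CPM, whereas Cxcl12 peaks in adipocytes and Cxcl1 in hepatocytes.

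Butyrate changed chemokine genes in all 4 cell types. At an adjusted p below 0.05, 16 of the 30 tested members were altered in adipocytes, where 61.0% of all genes tested were altered. Of these 16, 5 were raised and 11 lowered (30.7% and 30.3% of all genes). In macrophages 18 members changed against 65.0% of all genes, with 6 raised and 12 lowered (31.9% and 33.2%). For myocytes the count was 17 against 66.5%, with 7 raised and 10 lowered (33.1% and 33.4%). Hepatocytes had 11 against 63.5%, with 4 raised and 7 lowered (31.0% and 32.4%). As shares of the members, these are 53.3%, 60%, 56.7% and 36.7%, each below the share of all genes. The median absolute log2 fold change of the members was 0.74 against 0.42 for all genes in adipocytes, 1.23 against 0.49 in macrophages and 1.08 against 0.45 in myocytes. In hepatocytes the medians were 0.43 and 0.54. For βOHB, which changed no member by the test in adipocytes, macrophages or hepatocytes, the members also had the larger medians. These were 0.18 against 0.090, 0.15 against 0.059 and 0.16 against 0.084, in that order. Larger medians thus occurred without called members, and whether members responded more strongly to butyrate than other genes was not tested. The comparisons with butyrate and with βOHB share the control libraries of a cell type. With scaling to library totals instead, the median of all genes under butyrate moved by 0.20 on the log2 scale in macrophages and 0.13 in myocytes, and the macrophage members split into 10 raised and 9 lowered.

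The receptors of macrophages were mostly lowered. Of the 8 tested receptors, Ackr3 included, butyrate lowered 6 in these cells and raised 0, against 33.2% and 31.9% of all genes. Ccr3, 1 of the 6, passed the filter only through the macrophage groups in which it was high, and Cxcr2, which had the opposite pattern, was left out by that filter, so the count supports no tendency. Ligands went both ways, with 6 raised and 6 lowered of 22. The summed receptor level in macrophages was 227 ± 6.55 CPM with butyrate (SD, n = 3), below every control, and the summed ligands were 308 ± 6.65 CPM. In adipocytes, summed ligands were 509.9 ± 12.0 CPM with butyrate, and in hepatocytes 592 ± 26.7 CPM, within the range of the controls. In myocytes they were higher, at 172.5, 182.8 and 275.8 CPM against 123 to 144 CPM in controls. Summed receptors, all atypical receptors included, came to 38.8 ± 2.63 CPM with butyrate in adipocytes, 25.7 ± 0.60 CPM in myocytes and 13.1 ± 0.037 CPM in hepatocytes. The excess over the adipocyte controls lay in the atypical receptor Ackr3 (means of 11.3 and 30.9 CPM), since 4 of the 8 tested receptors were lowered there and only Ackr3 was raised. Ackr3 also made up most of the hepatocyte sum, with means of 6.40 and 10.05 CPM.

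**Figure D2:**
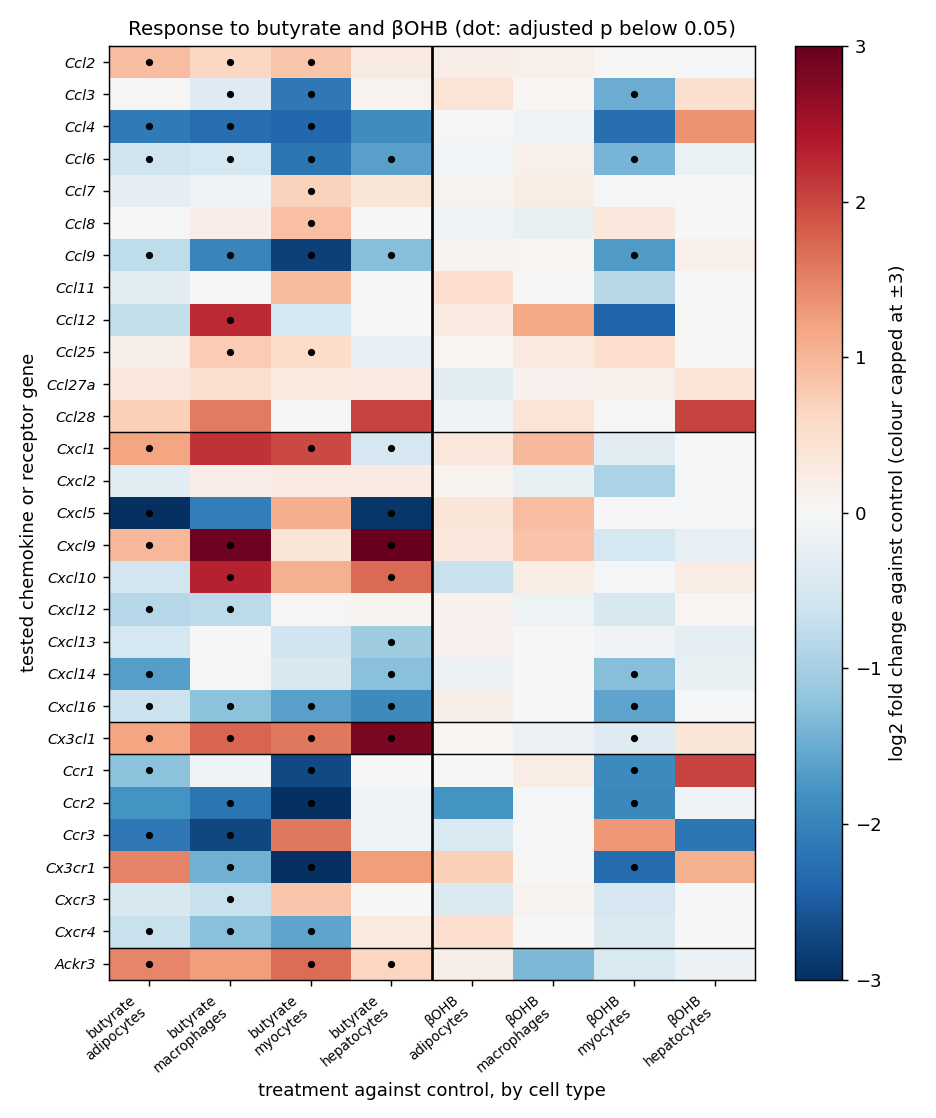
Log2 fold change against control of the tested members reported by name for butyrate and βOHB in the 4 cell types, by colour (capped at ±3), with a dot where the adjusted p is below 0.05. Cx3cl1 has a dot in all 4 butyrate columns, and βOHB columns hold none outside myocytes.

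Cx3cl1 was the only member raised by butyrate in all 4 cell types. In adipocytes it stood at 13.8, 11.4 and 12.7 CPM in controls and 30.4, 26.97 and 28.5 CPM with butyrate (log2 fold change 1.18 ± 0.11, adjusted p = 1.16e-10; values after ± are SE of log2 fold changes, with edgeR's quasi-likelihood test throughout). In macrophages the same ligand went from 9.06, 7.86 and 7.52 to 24.8, 29.6 and 28.3 CPM (log2 fold change 1.76 ± 0.12, adjusted p = 3.89e-14). Controls and treated libraries were fully apart in both cell types.

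Myocytes, which had the most Cx3cl1 to begin with, reached 88.8, 89.5 and 68.1 CPM of it with butyrate (log2 fold change 1.59 ± 0.10, adjusted p = 2.8e-14). In hepatocytes, Cx3cl1 was near the detection limit in controls at 0.0627, 0.0614 and 0.414 CPM and stood at 1.27, 1.29 and 1.44 CPM with butyrate (log2 fold change 2.82 ± 0.42, adjusted p = 7.8e-07). The hepatocyte level with butyrate was thus still below the control level of the other cell types. Cx3cl1 lies on chromosome 8 (94772009 to 94782427, plus strand, GRCm38.p6). Its start-proximal sequence from RefSeq is shown because this gene carried the shared butyrate response. The stretch at chr8:94772153-94772179 is printed 5′ to 3′ with a GC box (GGGCGG) and a TATA box (TATAAA) in capitals. It ends at the base before the RefSeq start but lies inside an exon of the gene in GENCODE, whose annotated start is further upstream.

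Cx3cl1: GGGCGGaggctgccagcccatTATAAA

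Of 32851 RefSeq mouse windows of 250 bases before a gene's start, read on both strands, 32.7% held GGGCGG and 12.4% held TATAAA, so that each motif on its own is common. A match describes letters and is no evidence of factor binding.

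Ackr3, Ccl2 and Cxcl9 were raised in 3 of the 4 cell types. Ackr3 was at 13.8, 10.6 and 9.41 CPM in adipocyte controls and 31.7, 28.7 and 32.3 CPM with butyrate (log2 fold change 1.45 ± 0.20, adjusted p = 3.01e-07). In myocytes it rose from 7.97, 4.27 and 5.14 to 19.3, 17.97 and 18.3 CPM (log2 fold change 1.68 ± 0.22, adjusted p = 9.98e-08). The lowest treated library exceeded the highest control in both cell types. In hepatocytes control replicate 2 (4.76, 10.02 and 4.43 CPM in the 3 controls) overlapped the treated libraries, and the call (log2 fold change 0.65, adjusted p = 0.0198) was lost when control replicate 1 or 3 was left out.

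Ccl2 stood at 61.6, 80.7 and 85.3 CPM in adipocyte controls and 144, 142 and 149 CPM with butyrate, without overlap (log2 fold change 0.93 ± 0.22, adjusted p = 0.000414). In macrophages it was at 15.4, 14.96 and 15.3 and 22.4, 24.1 and 23.5 CPM (log2 fold change 0.62 ± 0.26, adjusted p = 0.0343), a call that was lost in 5 of 6 fits with a library left out, with adjusted p up to 0.072; the call was kept without butyrate replicate 1. In myocytes the Ccl2 call rested on 1 library. The treated libraries held 38.1, 39.98 and 111 CPM against 32.3, 36.9 and 37.5 in controls (log2 fold change 0.82 ± 0.23, adjusted p = 0.00216), and without butyrate replicate 3 the log2 fold change was 0.14 (adjusted p = 0.34). Over its other alternatives the adjusted p was 2.94e-15 to 0.0598, the highest in a fit of the myocyte libraries alone. That library also had the highest Ccl7 (41.2 CPM), Ccl8 (4.06 CPM), Ccl11 (2.50 CPM) and Cxcl12 (21.9 CPM) of the myocyte libraries, and its 7 fibroblast markers summed to 2460 CPM against 1652 and 1695 CPM in the other myocyte libraries with butyrate. The part of these markers in the result was not tested. Without butyrate replicate 3 the fold changes of Ccl7 and Ccl8, both called in myocytes with all libraries, were -0.039 and 0.29 on the log2 scale, and neither was called. These 2 calls were also lost without control replicate 1.

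The Cxcr3 ligands Cxcl9 and Cxcl10, which attract activated T cells, rose with butyrate in hepatocytes. Cxcl9 was at 1.504, 0.246 and 0.768 CPM in controls and 7.89, 7.48 and 7.62 CPM with butyrate (log2 fold change 3.19 ± 0.40, adjusted p = 3.83e-08). Cxcl10 was at 65.7, 44.1 and 51.5 and 169.6, 190.1 and 164 CPM (log2 fold change 1.70 ± 0.28, adjusted p = 3.04e-06). Neither gene overlapped between the groups, and the 3 treated libraries were close to one another. Exons of Cxcl10 share 133 bases with Art3 on the opposite strand.

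Macrophages expressed both genes at low levels, with Cxcl9 at 0.0847, 0.201 and 0 CPM in controls and 0.738, 0.584 and 0.845 CPM with butyrate (log2 fold change 2.92 ± 0.86, adjusted p = 0.00379). Cxcl10 there was at 0.466, 0.352 and 0.821 and 2.87, 2.18 and 3.29 CPM (log2 fold change 2.31 ± 0.71, adjusted p = 0.00523). In adipocytes Cxcl9 rose from 11.6, 11.7 and 12.02 to 29.4, 17.8 and 22.99 CPM (log2 fold change 0.99 ± 0.25, adjusted p = 0.000981), whereas Cxcl10 varied as much within groups, from 9.73 to 27.1 CPM in controls, and was not called (adjusted p = 0.144). Replicate 1 had the highest Cxcl10 of its group both in controls (27.1 CPM) and with butyrate (19.99 CPM).

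The ligands Cxcl16, Ccl9 and Ccl6 were lowered by butyrate in all 4 cell types. Cxcl16 fell most in hepatocytes, from 102, 101 and 106 to 26.7, 27.6 and 27.4 CPM (log2 fold change -1.92 ± 0.16, adjusted p = 4.56e-12). In macrophages it went from 193, 189 and 196 to 86.5, 76.9 and 85.1 CPM (log2 fold change -1.22 ± 0.14, adjusted p = 1.01e-08). All treated libraries lay below all controls. Ccl9 fell in macrophages from 158, 169 and 173 to 43.3, 38.4 and 44.1 CPM (log2 fold change -1.99 ± 0.18, adjusted p = 7.25e-11) and in hepatocytes from 58.4, 53.3 and 55.2 to 22.6, 20.4 and 26.2 CPM (log2 fold change -1.28 ± 0.20, adjusted p = 1.51e-06). In adipocytes the log2 fold changes were -0.64 for Cxcl16, -0.75 for Ccl9 and -0.60 for Ccl6, and Ccl6 had its smallest decrease in macrophages (-0.53). Cxcl16 shares 552 bases of exon (18.3% of its exon length) with Zmynd15 on the opposite strand, and whether the counting used strand was not stated. Ccl9 and Ccl6 are both on the minus strand of chromosome 11 (83572919 to 83578636 and 83587882 to 83593087). In hepatocytes Ccl6 was below 1 CPM in all libraries and lost its call without control replicate 2 or butyrate replicate 3.

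Markers of other cells moved with some of these decreases. In hepatocytes the 10 macrophage markers summed to 301 to 346 CPM in controls and 138 to 157 CPM with butyrate (2 of 10 lowered), 6 of 6 endothelial markers were lowered, from 89.7 to 104 to 31.1 to 37.9 CPM in sum, and both Kupffer cell markers tested of 5 were lowered, from 7.43 to 8.84 to 2.92 to 3.66 CPM over all 5. In macrophages 6 of the 10 macrophage markers were themselves lowered, from 17820 to 18010 to 11000 to 11540 CPM in sum. The fall in hepatocytes lay in Cd14, at 206 to 229 CPM in controls and 34.95 to 39.4 CPM with butyrate. Cd68 was at 82.9 to 105 and 95.3 to 115 CPM, and the other 8 macrophage markers were low there, with Fcgr1 at 0 CPM in 2 of the 3 treated hepatocyte libraries. All 8 myotube markers were raised by butyrate in macrophages (median log2 fold change 2.69), from a sum of 6.95 to 14.5 CPM in controls to 21.9, 26.7 and 66.9 CPM. The part of these markers in the results was not tested.

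In adipocytes, butyrate lowered the 2 abundant homeostatic ligands. Cxcl14 was at 63.4, 49.3 and 54.4 CPM in controls and 17.97, 15.9 and 19.4 CPM with butyrate (log2 fold change -1.65 ± 0.13, adjusted p = 5.82e-12). The same gene stayed at 35.4, 33.02 and 30.99 CPM in treated macrophages against 34.3, 33.03 and 34.4 in controls (95% interval of the log2 fold change -0.29 to 0.22), and fell in hepatocytes (log2 fold change -1.25 ± 0.34, adjusted p = 0.00203), where it was near 2 CPM in controls. Cxcl14 lies on chromosome 13 (56288643 to 56296551, minus strand, GRCm38.p6). The 250 bases before its start in RefSeq (chr13:56296552-56296801, minus strand, 5′ to 3′) are shown because its decrease in adipocytes had the smallest p-value of the members there. Neither motif named above nor the E-box CACGTG was found in them on either strand, so no letter is capitalised. CACGTG was found in 6.02% of all windows, and the window's GC content was 59.6% with 16 CpG, against medians of 52.4% and 6.

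Cxcl14: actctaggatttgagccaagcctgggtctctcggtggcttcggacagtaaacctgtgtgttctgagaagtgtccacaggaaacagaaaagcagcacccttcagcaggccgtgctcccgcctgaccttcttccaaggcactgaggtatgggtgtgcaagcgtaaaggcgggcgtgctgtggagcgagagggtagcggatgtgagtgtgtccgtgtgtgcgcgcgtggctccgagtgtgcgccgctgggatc

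Cxcl12, the ligand shared by Cxcr4 and Ackr3, stood at 322, 293 and 296 CPM in adipocyte controls and 169.7, 179.8 and 152 CPM with butyrate (log2 fold change -0.86 ± 0.15, adjusted p = 1.21e-05). It also fell in macrophages (log2 fold change -0.79 ± 0.16, adjusted p = 9.58e-05), with no overlap in either cell type. Ccl4 in adipocytes went from 2.51, 2.45 and 3.08 to 0.837, 0.453 and 0.583 CPM (log2 fold change -2.11 ± 0.36, adjusted p = 7.21e-06). Its level was below that of macrophages in controls and with butyrate. Adipocyte libraries held 367 to 438 CPM of the 10 macrophage markers in controls and 338 to 362 CPM with butyrate, with 3 of the 10 lowered, and the part of these markers in the result was not tested. The neutrophil attractants moved apart in adipocytes: Cxcl1 rose from 1.86, 1.76 and 1.603 to 3.15, 4.57 and 4.12 CPM (log2 fold change 1.19 ± 0.28, adjusted p = 0.000548), while Cxcl5 fell from 1.39, 0.904 and 1.18 to 0.345, 0 and 0.0896 CPM (log2 fold change -3.04 ± 0.59, adjusted p = 4.96e-05).

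The 6 lowered macrophage receptors included the most abundant. Cxcr4 was at 381, 386 and 375 CPM in controls and 164, 155 and 163 CPM with butyrate (log2 fold change -1.24 ± 0.092, adjusted p = 5.1e-13). Treated and control libraries did not overlap. The receptor Cx3cr1 was lowered as well (log2 fold change -1.44 ± 0.18, adjusted p = 3.1e-08), so that in macrophages the ligand Cx3cl1 rose while its receptor fell. Ccr2 (-2.18 log2), Ccr3 (-2.73) and Cxcr3 (-0.67) were also lowered, and Ccr1 was not called (95% interval -0.60 to 0.32). Ccr3 was not tested when any macrophage control was left out, since it then fell below the filter.

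The ligand Ccl4 fell in macrophages from 13.6, 13.7 and 12.2 to 2.17, 2.88 and 3.04 CPM (log2 fold change -2.28 ± 0.25, adjusted p = 2.77e-09). Ccl3, also on chromosome 11, was called lowered as well, from 20.5, 20.2 and 20.9 to 14.8, 16.3 and 15.9 CPM (log2 fold change -0.39, adjusted p = 0.0218), and its call was lost without control replicate 3 or butyrate replicate 1 or 3 (adjusted p up to 0.104). The difference between Ccl3 and Ccl4 was not tested. Ccl25, a thymic and intestinal chemokine, rose from 3.43, 2.32 and 3.11 to 5.82, 4.25 and 5.11 CPM (log2 fold change 0.76 ± 0.16, adjusted p = 7.66e-05). Its exons share 204 bases with Elavl1 on the opposite strand. Ccl12 was called raised at very low levels, with 0.0847, 0.0504 and 0 CPM in controls and 0.304, 0.234 and 0.169 CPM with butyrate (adjusted p = 0.0245), and lost the call without control replicate 3 or butyrate replicate 1. Cxcr2, a receptor of neutrophil-attracting chemokines, was below the filter but was at 0.0423, 0 and 0 CPM in macrophage controls and 1.65, 1.79 and 1.35 CPM with butyrate, 1 count against 116 in all, and it was called raised when every gene with a count above 0 was tested (edgeR adjusted p = 4.73e-14).

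**Figure D3:**
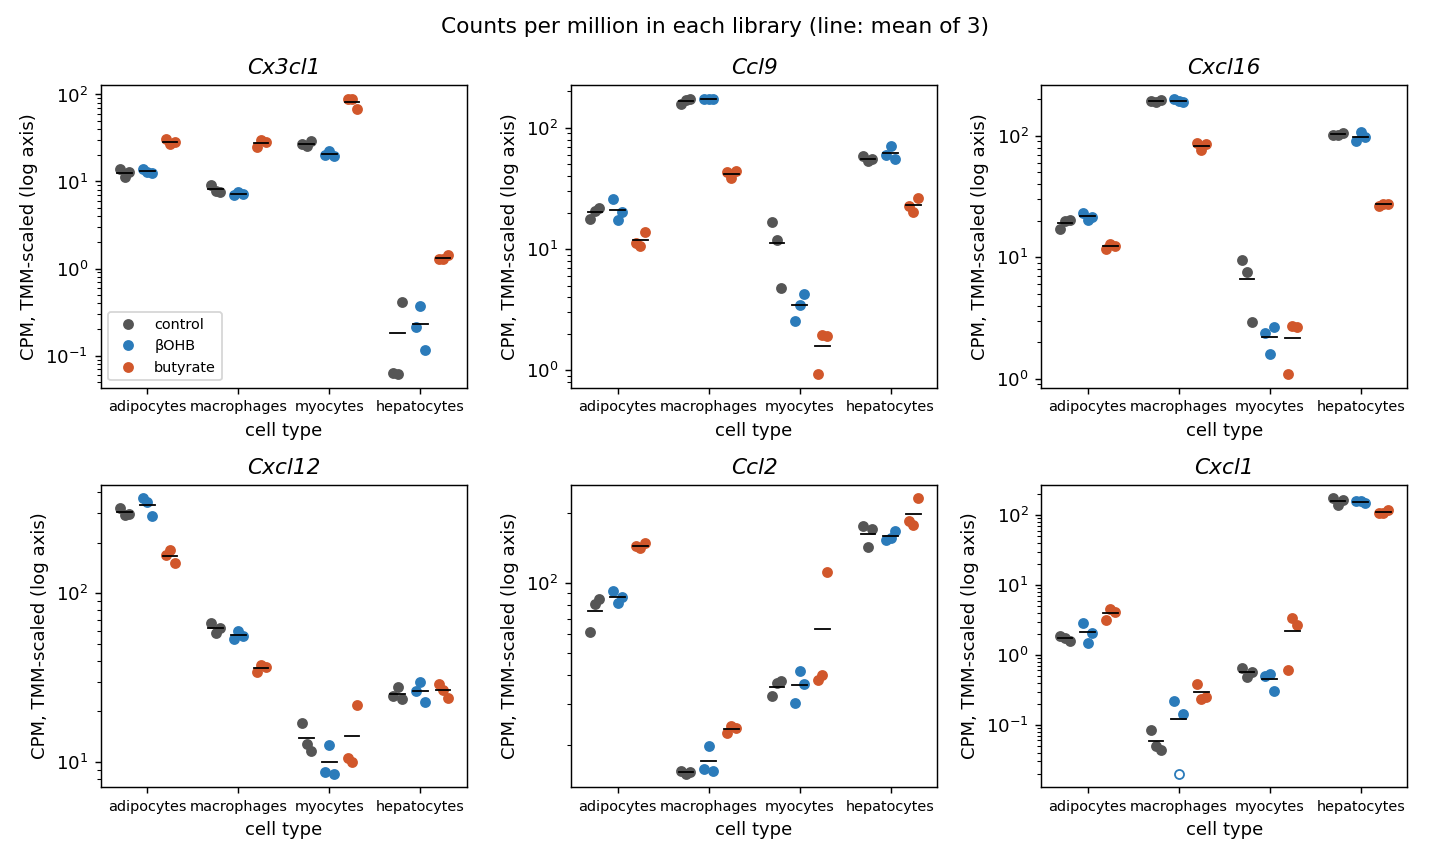
CPM of Cx3cl1, Ccl9, Cxcl16, Cxcl12, Ccl2 and Cxcl1 in each library on a logarithmic axis, by cell type and treatment, with a line at the group mean (n = 3) and an open circle for a library at 0. Cx3cl1 is higher with butyrate in all 4 cell types, Cxcl16 and Ccl9 are lower, and 1 myocyte library with butyrate stands above the others for Ccl2, at 111 CPM.

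In hepatocytes, butyrate left the abundant Ccl2 uncalled (177, 143 and 171 CPM in controls, 185, 178 and 232 CPM with butyrate, 95% interval of the log2 fold change -0.14 to 0.70). Cxcl1 fell from 174, 139 and 163 to 109, 109 and 118 CPM without overlap (log2 fold change -0.50 ± 0.14, adjusted p = 0.00254). DESeq2 gave Cxcl1 an adjusted p of 0.058, and its other alternatives gave 3.83e-08 to 0.0192. Cxcl5 dropped from 2.57, 1.78 and 2.25 to 0.318, 0.248 and 0.300 CPM (log2 fold change -2.91 ± 0.50, adjusted p = 8.26e-06). Ccl5, which the filter on library totals left out and which was not called without it (edgeR adjusted p = 0.0666), was at 1.44, 1.35 and 1.3 CPM in controls and 0.847, 0.842 and 0.480 CPM with butyrate. The B cell attractant Cxcl13 was called lowered in hepatocytes (log2 fold change -1.07) at about 1 CPM, and lost the call without control replicate 1 or 3 or butyrate replicate 1.

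In myocytes, butyrate lowered the receptors Cxcr4, Cx3cr1, Ccr1 and Ccr2, among others. Cxcr4 was at 11.7, 9.85 and 8.35 CPM in controls and 3.17, 3.51 and 3.21 CPM with butyrate (log2 fold change -1.59 ± 0.15, adjusted p = 1.24e-10). Cx3cr1 was at 9.803, 8.45 and 3.52 and 0.284, 1.41 and 0.714 CPM (log2 fold change -3.15 ± 0.34, adjusted p = 2.66e-09), and Ccr1 at 7.97, 7.26 and 2.59 and 0.528, 1.09 and 1.12 CPM (log2 fold change -2.70 ± 0.35, adjusted p = 1.57e-07). Control replicate 3 was the lowest control for each of these receptors. Ccl9 stood at 16.8, 11.8 and 4.79 CPM in controls and 0.934, 1.94 and 1.92 CPM with butyrate (log2 fold change -2.80 ± 0.31, adjusted p = 4.76e-09), and Ccl6 at 8.61, 6.47 and 3.73 and 0.731, 2.1 and 1.29 CPM (log2 fold change -2.18 ± 0.26, adjusted p = 1.77e-08). The groups did not overlap for these genes. The 10 macrophage markers fell alongside, from 333, 266 and 127 CPM in the controls to 20.4, 84.4 and 31.6 CPM with butyrate, with 10 of 10 lowered (median log2 fold change -2.34, none at 0). Of the 8 myotube markers, 5 were lowered as well (median log2 fold change -0.47), from 25020 to 30720 CPM in sum to 16060 to 21700 CPM. The part of either list in the result was not tested.

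Ccl25 was raised in myocytes from 3.25, 3.04 and 3.38 to 4.101, 4.64 and 5.49 CPM (log2 fold change 0.56 ± 0.15, adjusted p = 0.00228). Cxcl1 was also called raised there (log2 fold change 1.97, adjusted p = 8.6e-05), with 0.641, 0.484 and 0.571 CPM in controls and 0.609, 3.39 and 2.72 CPM with butyrate. Hepatocyte markers were present in these treated libraries, and Cxcl1 is a hepatocyte-rich transcript. In butyrate replicate 2 the markers stood at 1.31% of their level in hepatocyte libraries, and the same share of the hepatocyte Cxcl1 level comes to 1.47 CPM, against 3.39 CPM measured. In butyrate replicate 3 that share comes to 0.34 CPM against 2.72 CPM measured, and in replicate 1 to 0.083 against 0.609. Without butyrate replicate 2 the log2 fold change of Cxcl1 was 1.52. The part of hepatocyte transcripts in the Cxcl1 result was not tested. The very low Ccl4 of myocytes (0.596, 0.0880 and 0.0439 CPM in controls, 0, 0 and 0.134 CPM with butyrate) was called lowered and lost the call without control replicate 1 or butyrate replicate 1 or 2.

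No member was called for βOHB in adipocytes, macrophages or hepatocytes. With edgeR, 0 of 30 passed in each of these cell types, where 0.00652%, 0% and 0.00652% of all genes were called. An unadjusted p below 0.05 was reached by 1, 0 and 0 members, and limma-voom and DESeq2 called none. When every gene with a count above 0 was tested, Cxcl10 (log2 fold change -0.66, adjusted p = 2.46e-05) and Cxcr4 (log2 fold change 0.51, adjusted p = 0.0174) were called in adipocytes, although control and βOHB libraries overlapped for both. Cxcl10 was at 27.1, 9.73 and 13.4 CPM in controls and 15.7, 6.71 and 8.87 CPM with βOHB, lower in each same-numbered pair. For the most abundant members, the 95% interval of the log2 fold change was -0.16 to 0.19 for Cxcr4 in macrophages. It was -0.16 to 0.42 for Cxcl12 in adipocytes and -0.46 to 0.38 for Ccl2 in hepatocytes. These intervals leave room for changes of such sizes. For Cx3cl1, which butyrate raised, the interval with βOHB was -0.17 to 0.29 in adipocytes and -0.43 to 0.078 in macrophages.

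In myocytes, βOHB lowered 9 of the 30 tested members and raised none, while 2.91% of all genes were called there (0.346% raised, 2.56% lowered). An unadjusted p below 0.05 was reached by 14 members. The median log2 fold change of the members was -0.48, against 0.023 for all genes. The 9 members were the receptors Cx3cr1, Ccr1 and Ccr2 and the ligands Ccl9, Cxcl16, Ccl6, Cxcl14, Ccl3 and Cx3cl1, and 7 of them had their highest mean control level in macrophages (for Ccl6 this was not separated from adipocytes). The same held for 12 of the 30 tested members, for 3928 of all 15340 genes (25.6%) and for 347 of the 393 genes that βOHB lowered in myocytes (88.3%).

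Cx3cr1 was at 9.803, 8.45 and 3.52 CPM in myocyte controls and 1.05, 0.976 and 2.35 CPM with βOHB (log2 fold change -2.30 ± 0.31, adjusted p = 6.97e-05). Ccr1 was at 7.97, 7.26 and 2.59 and 1.15, 1.198 and 2.39 CPM (log2 fold change -1.90 ± 0.32, adjusted p = 0.000555). Ccr2, the receptor for Ccl2, was at 1.28, 1.19 and 0.308 and 0.0459, 0.311 and 0.354 CPM (log2 fold change -1.92, adjusted p = 0.0384). For Cx3cr1 and Ccr1 every treated library was below every control, whereas for Ccr2 control replicate 3 lay within the treated range.

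The ligand Ccl9 was at 16.8, 11.8 and 4.79 CPM in controls and 2.57, 3.46 and 4.25 CPM with βOHB (log2 fold change -1.69 ± 0.28, adjusted p = 0.000315). Cxcl16 was at 9.48, 7.52 and 2.94 and 2.38, 1.598 and 2.66 CPM (log2 fold change -1.58 ± 0.26, adjusted p = 0.000405). Ccl6 stood at 8.61, 6.47 and 3.73 and 1.88, 2.22 and 2.97 CPM (log2 fold change -1.40 ± 0.24, adjusted p = 0.000504). In all 3 genes control replicate 3 was close to the treated libraries, and control replicates 1 and 2 lay well above them.

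Cxcl14 was at 3.34, 3.48 and 2.06 CPM in controls and 1.24, 1.198 and 1.24 CPM with βOHB, without overlap (log2 fold change -1.27 ± 0.26, adjusted p = 0.00370). Ccl3 was at 1.37, 0.968 and 0.483 and 0.183, 0.266 and 0.532 CPM (adjusted p = 0.0232), with overlap. Cx3cl1 had the smallest decrease, from 27.2, 25.7 and 28.9 to 20.4, 22.4 and 19.7 CPM (log2 fold change -0.39, adjusted p = 0.0393). It did not overlap between groups, yet its call was lost in all 6 fits with a myocyte library left out (adjusted p up to 0.158). Ccl3 and Ccr2 lost theirs without control replicate 1 or 2 or βOHB replicate 1 or 2, with adjusted p up to 0.326 and 0.304. The other 6 kept their calls in all 6 of these fits. In a fit of the 9 myocyte libraries alone, 0 of the 9 were called (adjusted p from 0.287 to 0.453). limma-voom called 6 and DESeq2 10 members.

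The macrophage markers moved with these members. Their sum in myocytes was 333, 266 and 127 CPM in the controls and 69.1, 49.4 and 125 CPM with βOHB, and all 10 were lowered (median log2 fold change -1.60, none at 0). Relative to that sum, Ccl9 was at 5.05%, 4.44% and 3.77% in the controls and 3.72%, 7.01% and 3.405% with βOHB. Ccl6 came to 2.59%, 2.43% and 2.94% and 2.72%, 4.49% and 2.38%, and Cxcl16 to 2.85%, 2.82% and 2.32% and 3.45%, 3.23% and 2.13%. The ranges of these ratios overlapped between control and βOHB for all 3 genes, and also for Ccr1, Cxcl14, Ccl3 and Ccr2. For every called member the mean ratio was lower in macrophage controls than in myocyte controls. It was 0.932% against 4.42% for Ccl9, 0.148% against 2.65% for Ccl6, 1.08% against 2.66% for Cxcl16 and 0.0793% against 2.39% for Ccr1.

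Cx3cr1 differed in this respect, with 2.95%, 3.17% and 2.77% of the marker sum in the controls and 1.53%, 1.98% and 1.88% with βOHB, and no overlap. In macrophage libraries its ratio was 0.526%, 0.504% and 0.545% in the controls and 0.551%, 0.557% and 0.532% with βOHB. The ratio of Cx3cl1, which the macrophages held at a lower level than the myocytes, was 8.18%, 9.65% and 22.8% and 29.6%, 45.5% and 15.8%. These ratios are descriptions, and the part of macrophage transcripts in the βOHB result was not tested.

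**Figure D4:**
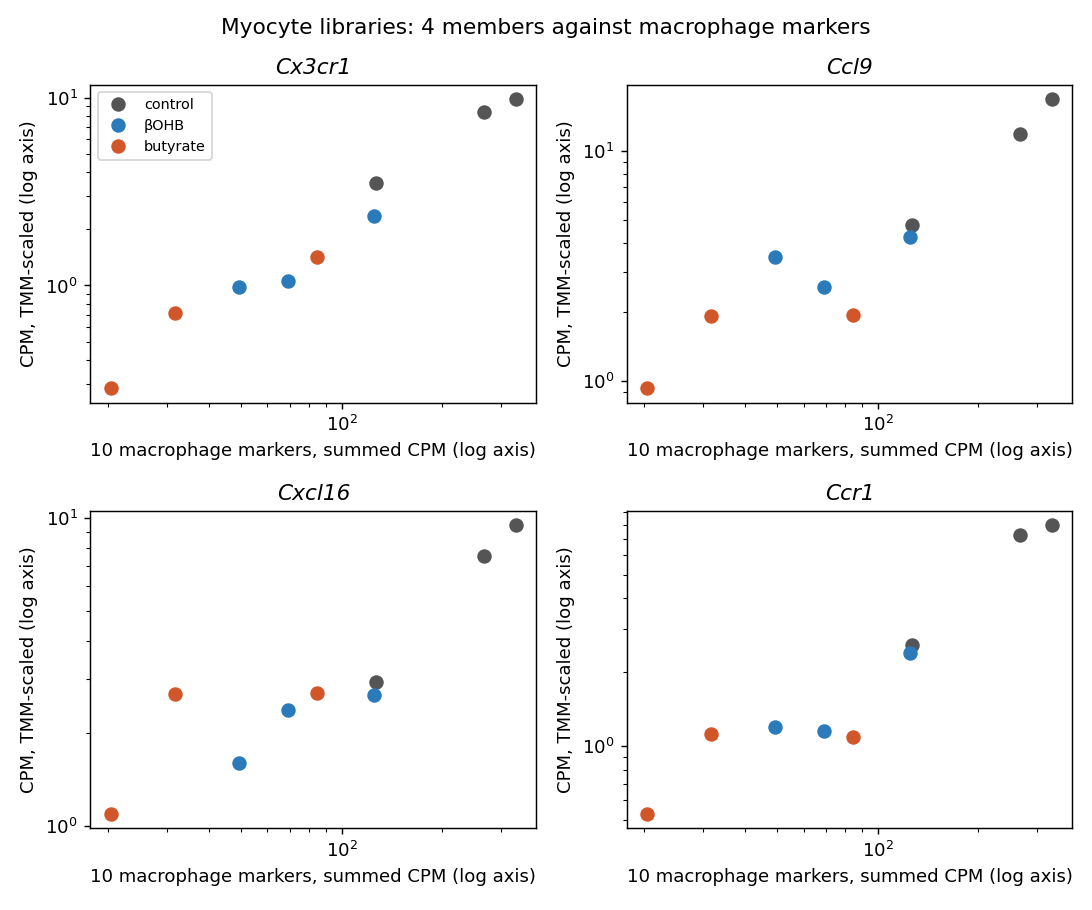
Summed CPM of 10 macrophage markers (horizontal, logarithmic) against the CPM of Cx3cr1, Ccl9, Cxcl16 and Ccr1 (vertical, logarithmic) in each of the 9 myocyte libraries, by treatment. The 2 controls with the highest marker sums also have the highest level of each of the 4 genes, and control replicate 3, at 127 CPM, lies beside βOHB replicate 3, at 125 CPM.

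The effect of βOHB was tested for a difference between cell types in the same model. It differed for 5 of 30 members (0.978% of all genes): Cx3cr1, Ccl9, Cxcl16, Ccl6 and Ccr1. Myocytes against the mean of the other 3 cell types also gave 5 (1.06% of all genes, 0.0522% raised and 1.00% lowered), namely Cx3cr1 (log2 difference -2.90, adjusted p = 0.0190), Ccl3 (-1.81), Ccl9 (-1.79), Cxcl16 (-1.62) and Ccl6 (-1.36). Changes near the floor enter the Cx3cr1 difference, from 0.157 to 0.262 CPM in adipocytes and from 0.103 to 0.222 CPM in hepatocytes (control to βOHB means). Without hepatocyte βOHB replicate 3 its call was lost (edgeR adjusted p = 0.114). Ccl3 was at 0.284 and 0.405 CPM in hepatocytes. The first count went to 0 without myocyte control replicate 1 or βOHB replicate 1 or 2, to 1 without control replicate 2 and to 8 without control replicate 3. The second went to 2 without control replicate 1 or βOHB replicate 1 or 2 and to 3 without control replicate 2 or hepatocyte βOHB replicate 3. With limma-voom the counts were 1 and 3, with DESeq2 8 and 8, with the replicate number as a block 3 and 2, and with every gene above 0 tested 13 and 9. The butyrate effect differed between cell types for 18 members (74.5% of all genes). Cxcl1, for example, was raised in adipocytes and myocytes and lowered in hepatocytes.

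Butyrate and βOHB differ by a hydroxyl group, and both were applied at 5 mM for 6 h, so their libraries were compared directly in 4 pairs, 1 for each cell type, with p-values adjusted over all genes within each pair. These comparisons share treated libraries with those above. Adipocytes had 19 of 30 members that differed, against 59.5% of all genes, with 6 higher and 13 lower with butyrate (30.0% and 29.5% of all genes). Macrophages had 18 against 64.7%, with 5 higher and 13 lower (31.8% and 32.8%). Myocytes had 11 against 66.0%, with 8 higher and 3 lower (33.1% and 32.9%), and hepatocytes 10 against 63.5%, with 4 higher and 6 lower (30.5% and 33.0%). Cx3cl1 was higher with butyrate in each pair, with log2 differences of 1.12, 1.94, 1.98 and 2.47 in adipocytes, macrophages, myocytes and hepatocytes (largest adjusted p = 1.58e-06). Ackr3 was higher in each pair as well, by 1.28, 2.62, 2.14 and 0.83.

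In myocytes the compounds did not separate for several members that both had lowered. The log2 difference between butyrate and βOHB was -0.041 for Cxcl16 (95% interval -0.67 to 0.59), -0.85 for Cx3cr1 (-1.76 to 0.053) and -0.80 for Ccr1 (-1.62 to 0.024), none of which passed the test, and the intervals leave room for sizeable differences. Ccl9 and Ccl6 were lower with butyrate than with βOHB (log2 fold change -1.11 ± 0.38, adjusted p = 0.0118, and log2 fold change -0.77 ± 0.31, adjusted p = 0.0278). Both calls were lost without βOHB replicate 3 or butyrate replicate 1, and that of Ccl6 also without butyrate replicate 3 (adjusted p up to 0.076 for Ccl9 and 0.199 for Ccl6). Cxcr4, which βOHB did not change by the test, was 7.02, 7.41 and 7.797 CPM with βOHB and 3.17, 3.51 and 3.21 CPM with butyrate (log2 fold change -1.16 ± 0.16, adjusted p = 1.25e-07). Without myocyte butyrate replicate 3 the number of members that differed in myocytes was 5 instead of 11.

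Genes that work with chemokine receptors were also counted, from lists of other ligands and receptors of the system, receptor signal transduction and receptor desensitisation. Of all genes tested, butyrate raised 30.7% and lowered 30.3% for adipocytes, 31.9% and 33.2% for macrophages, 33.1% and 33.4% for myocytes, 31.0% and 32.4% for hepatocytes. Of 8 tested ligands and receptors outside the symbol rule, butyrate raised 2 and lowered 1 for adipocytes, 1 and 3 in macrophages, 4 and 3 for myocytes and 1 and 3 for hepatocytes. Of 24 tested signalling genes it raised 9 and lowered 5 for adipocytes, 5 and 13 in macrophages, 7 and 10 for myocytes and 6 and 7 for hepatocytes. Prex1, a Rac exchange factor, rose in all 4 cell types, most in hepatocytes (log2 fold change 1.85 ± 0.17, adjusted p = 1.06e-10) and least in macrophages (log2 fold change 0.27 ± 0.081, adjusted p = 0.00441). Pxn (paxillin) rose in adipocytes, macrophages and hepatocytes. Of 13 tested desensitisation genes, butyrate raised 5 and lowered 4 for adipocytes, 3 and 8 in macrophages, 7 and 3 for myocytes and 6 and 3 for hepatocytes. Rgs19, which dampens inhibitory G proteins, fell in all 4 cell types, most in hepatocytes (log2 fold change -2.14 ± 0.13, adjusted p = 3.89e-15). βOHB altered none of these genes outside myocytes. In myocytes it lowered 2 of 8, 11 of 24 and 3 of 13 and raised none, where 2.56% of all genes were lowered and 0.346% raised. The lowered genes included the leukocyte-rich Pf4 (log2 fold change -3.10 ± 0.52, adjusted p = 0.000395), Cd74, Pik3cg, Dock2 and Rac2, which moved together with the macrophage markers.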

How the data were processed

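RNA-seq (BGISEQ-500, paired-end reads) was performed on 36 libraries from primary mouse cells, 3 for each of 12 groups. The authors quantified transcripts with Salmon 1.2.1 against GENCODE transcripts of GRCm38.p6 and deposited gene-level estimated counts, scaled with tximport by average transcript length and library size. Because of that scaling, library totals (18366289 to 23221473) are close to, but not exactly, the reads assigned. The study's table was rounded to whole numbers here.

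A gene entered the test where 6 or more libraries exceeded 1 CPM relative to library totals, before TMM scaling, which left 15340 genes. The quasi-likelihood F test of edgeR 4.0.16 (R 4.3.3) was applied after TMM scaling, with 1 mean for each of 12 groups, and p-values were adjusted by Benjamini-Hochberg over all genes of a comparison, with 0.05 as threshold. The step was tested on simulated counts. All libraries share 1 estimate of the spread. An exact permutation test of 3 against 3 libraries cannot go below p = 0.1. Alternatives were limma-voom (limma 3.58.1), DESeq2 1.42.0, other scalings and filters, an unadjusted threshold of 0.001, fits within a cell type, a replicate block and each library left out. Replicates of a group differed beyond sampling noise in all 36 pairs.

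Members followed the symbol rule, and the members, marker lists and pathway lists were chosen with earlier results of these data known. Named in full were, for each comparison, up to 5 raised and 5 lowered members of smallest p, and the 5 with the highest level per exon length (GENCODE M21 exons, GRCm38.p6) in each control. A member's other values are given where a described pattern needs them, and these were chosen after their values were seen. A few genes entered the counts but are not reported here by name. Promoter sequences came from RefSeq, in which 24 of 33 members had an entry.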

Additional observations from a re-analysis of the deposited data

Results flagged for a closer look

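The effect of butyrate differed between cell types by the interaction test for 18 members. The range of its log2 fold change over the 4 cell types was 4.63 for Cx3cr1, 4.30 for Ccr3, 2.96 for Ccl12, 2.86 for Cxcl10, 2.83 for Cxcl9 and 2.70 for Ccr1. It was 2.67 for Cxcl1, 2.23 for Ccl3, 2.05 for Ccl9, 1.89 for Cxcr4 and 1.64 for both Ccl6 and Cx3cl1. Smaller ranges were found for Cxcl14 (1.62), Cxcl16 (1.28), Ackr3 (1.03), Ccl25 (1.01), Ccl7 (0.98) and Cxcl12 (0.93). For Cx3cr1 the ends of the range were -3.15 in myocytes and 1.48 in adipocytes, where the gene was below 1 CPM and not called. Ccl12 was below 1 CPM outside adipocytes and Ccr3 below 1 CPM outside macrophages.

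The effect of βOHB in myocytes differed from its mean effect in the other 3 cell types for 5 members, by -2.90 on the log2 scale for Cx3cr1, -1.81 for Ccl3, -1.79 for Ccl9, -1.62 for Cxcl16 and -1.36 for Ccl6. Macrophage markers in the same libraries were lower with βOHB as well, and their part in the result was not tested. Of the other cell types, adipocytes and hepatocytes held Cx3cr1, and hepatocytes Ccl3 and Ccl6, below 1 CPM in control and βOHB libraries.

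Outside the chemokine genes, 7 hepatocyte markers summed to a mean of 236 CPM in the myocyte libraries with butyrate, against 0 to 0.044 CPM in the myocyte controls.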

How the results depend on the processing

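Butyrate counts against control kept their size within 1.5 times of the reported value in all 4 cell types under every alternative except an unadjusted p below 0.001, which gave 11 in macrophages and 6 in hepatocytes. That threshold also gave 10, 4 and 6 for butyrate against βOHB in adipocytes, myocytes and hepatocytes. Testing every gene with a count above 0 gave 2 for βOHB in adipocytes, 17 for butyrate against βOHB in myocytes, 13 for the difference of the βOHB effect between cell types and 9 for myocytes against the others. With limma-voom the last 3 were 7, 1 and 3, and with DESeq2 the last 2 were 8 and 8. In a fit of the 9 myocyte libraries alone, the βOHB count fell to 0 and that of butyrate against βOHB to 7. With libraries left out, the difference of the βOHB effect between cell types ranged from 0 to 8, myocytes against the others from 2 to 7, and butyrate against βOHB in myocytes from 5 to 15.

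With the replicate number as a block (replicate block), the difference of the βOHB effect between cell types gave 3 and myocytes against the others gave 2. The block changed no other count by over 1.5 times. In 4 of 36 pairs of same-numbered libraries did the deviations correlate above 0.1 (range -0.26 to 0.27). Between adipocyte controls and βOHB the correlations were 0.22, -0.11 and 0.17. Correlations over all genes cannot exclude that the numbers pair some of the libraries. For the 52 changes that met the naming rule, 803 of 865 alternatives kept direction and threshold side, 62 lost the threshold and 0 reversed. The cause of these differences was not tested. Depth limits members under about 1 CPM, where a library held a few to about 20 counts.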

Other observations

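Ccr10, the receptor for Ccl27 and Ccl28, was below the test's filter and was at 0.260, 0.301 and 0.380 CPM in adipocyte controls, 0.513, 0.423 and 0.540 CPM with βOHB and 0.935, 0.988 and 1.25 CPM with butyrate. The libraries with butyrate lay above all others of that cell type. When every gene with a count above 0 was tested with edgeR, butyrate against control was called (log2 fold change 1.70, adjusted p = 0.00123) and butyrate against βOHB was not (adjusted p = 0.0558).

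Ccl25 was at 3.25, 3.04 and 3.38 CPM in myocyte controls and 4.91, 4.39 and 4.52 CPM with βOHB, without overlap between the groups, although the difference did not pass the test (log2 fold change 0.51, adjusted p = 0.0738 by edgeR). Cxcr4 in myocytes was likewise lower in every library with βOHB (7.02, 7.41 and 7.797 CPM) than in every control (11.7, 9.85 and 8.35 CPM) at an adjusted p of 0.0853. The 10 macrophage markers in these libraries summed to 333, 266 and 127 CPM in the controls and 69.1, 49.4 and 125 CPM with βOHB, with all 10 lowered, and Cxcr4 was far higher in macrophages. Their part in the Cxcr4 values was not tested.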
